A study of Camponotus floridanus with 64 samples.

Results

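The brains of newly emerged major and minor workers of the carpenter ant Camponotus floridanus were compared by poly(A) RNA sequencing, with 5 majors set against 5 minors. These are 10 of the 64 samples and of the 37 RNA libraries in the series, and they were taken by their labels for age and worker morphology. Majors and minors were both callow workers, meaning recently emerged adults, on day 1 of adult life. All came from colony SB2, whose foundress came from the Florida Keys, and none had been treated. Central brain was the tissue in every library. A caste difference here is therefore one between nestmates of a single colony, and each library is taken as a separate brain. The table holds 18130 identifiers, of which 3694 had a mean deposited value of at least 1 and were tested.

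Ant workers of this genus are sisters that develop into different body sizes from similar genomes. Majors have large heads and are known for defence and food storage, while minors do most of the brood care and foraging. Behaviour changes with age in both castes, so day 1 shows the brain before foraging begins. Nearly all identifiers are numbered and carry no gene name, and 0 of 14020 reference genes matched one, so no role can be given to a numbered gene.

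The libraries did not stand alike. Majors 1 to 5 detected 5459, 6298, 6528, 10216 and 11768 identifiers, and minors 1 to 5 detected 10664, 10462, 10829, 11259 and 11107. Majors 1 to 3 lay far below every minor, major 4 slightly below, and major 5 above all of them, so the castes overlapped. The mean was 8054 ± 2767 in majors and 10864 ± 323 in minors (SD, n = 5 each), a difference of -2810 that did not pass an exact two-sided permutation test (p = 0.111, where 0.00794 is the smallest this design allows). Without major 5 the difference was -3739 and its p 0.0159, the smallest that 4 against 5 libraries can give in this exact permutation test.

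The identifiers missed in majors 1 to 3 were not only weak ones. Among 5786 identifiers of all classes detected in all 5 minors at a mean level under 1, majors 1 to 5 missed 59.9%, 49.9%, 43.7%, 4.36% and 0.726%. Among 54 identifiers at a level of 8 or more in the minors they missed 16.7%, 7.41%, 11.1%, 1.85% and 0%. The 54 are not all numbered genes: they include rRNA25 and rRNA26, missed by major 1, and miRNAnovel6, missed by majors 1 to 3. A level is the deposited log2 value with the library's constant removed, and an identifier that was not detected is listed at 0. The share missed was lower at a level of 8 or more than under 1 in every major, and majors 1 to 3 still missed abundant identifiers. Over the tested genes, major 1 correlated with the minors at r = 0.32 to 0.36, major 2 at 0.42 to 0.52 and major 3 at 0.55 to 0.61. Major 4 correlated with them at 0.73 to 0.80 and major 5 at 0.82 to 0.88, beside 0.81 to 0.87 between minors. These r are descriptions across genes, which are not independent replicates. The median SD of a gene was 0.84 across majors and 0.33 across minors, while majors 4 and 5 differed by a median of 0.37 and pairs of minors by 0.34. Whether low yield, caste or both set the number detected in majors 1 to 3 was not tested.

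**Figure D1:**
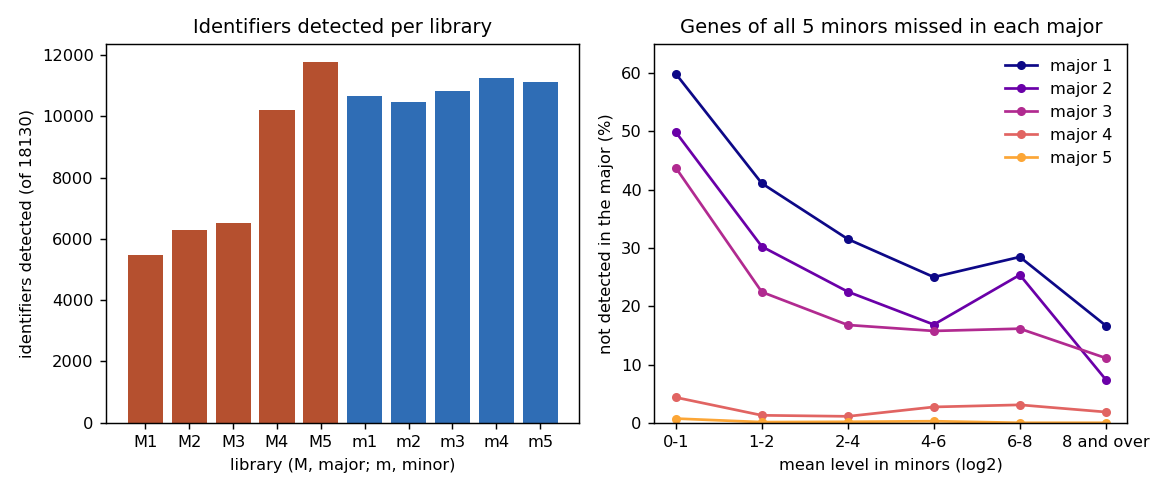
Left, identifiers detected in each library (bars, of 18130) for majors M1 to M5 and minors m1 to m5. Right, the percentage of identifiers detected in all 5 minors that each major missed, by mean level in the minors (log2). Majors 1 to 3 detected 5459 to 6528 identifiers and missed 59.9%, 49.9% and 43.7% of the weakest ones, while major 5 missed 0.726% of them.

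With all 10 libraries, few genes passed, and those that did were lower in majors. Cflo_00620 and Cflo_08796 fell in majors, and they are 2 of 3694 genes (0.0541%) called by limma with Benjamini-Hochberg adjustment, while 0 genes were called higher. Without adjustment, 160 genes (4.33%) reached a p under 0.05 as higher in majors and 451 (12.2%) as lower, beside a median difference of -0.22 over all tested genes. A difference is the mean of majors minus the mean of minors on the deposited log2 scale.

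Cflo_00620 was listed at 0 in all 5 majors, and in minors 1 to 5 it stood at levels of 6.74, 4.86, 7.35, 4.32 and 6.56. The castes were separated by a gap of 4.28, the widest of any tested gene lower in majors. Its difference was -5.94 (SE 0.56; limma, Benjamini-Hochberg adjusted p = 0.00298), which is no fold change because the majors are all listed at 0. With majors 4 and 5 alone it was -5.95 (SE 0.86) and did not pass (limma, adjusted p = 0.130). A further day 1 minor, sequenced as 6 subsamples of its brain in a table of its own, gave the gene in 5 of 6 subsamples. In 21 older scout brains, which are minors too, it was detected in 1.

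Cflo_08796 was listed at 0 in majors 1 to 3 and stood at 1.36 and 0.80 in majors 4 and 5, against 3.37, 3.36, 3.43, 3.84 and 3.37 in minors 1 to 5. The highest major lay 1.98 below the lowest minor, so the majors that did detect the gene were also apart from the minors. The difference was -3.03 (SE 0.31; limma, adjusted p = 0.00328). With majors 4 and 5 alone it was -2.37 (limma, adjusted p = 0.0422), and the gene was detected in all 6 subsamples of the further minor and in 9 of 21 scouts. Over 20 alternatives each, the limma adjusted p ran from 9.33e-05 to 0.130 for Cflo_00620, which passed in 17, and from 8.86e-05 to 0.0693 for Cflo_08796, which passed in 18. Leaving out major 5 gave 37 calls, and leaving out major 4 or minor 5 gave 4 each; both genes were among the calls in all 3.

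**Figure D2:**
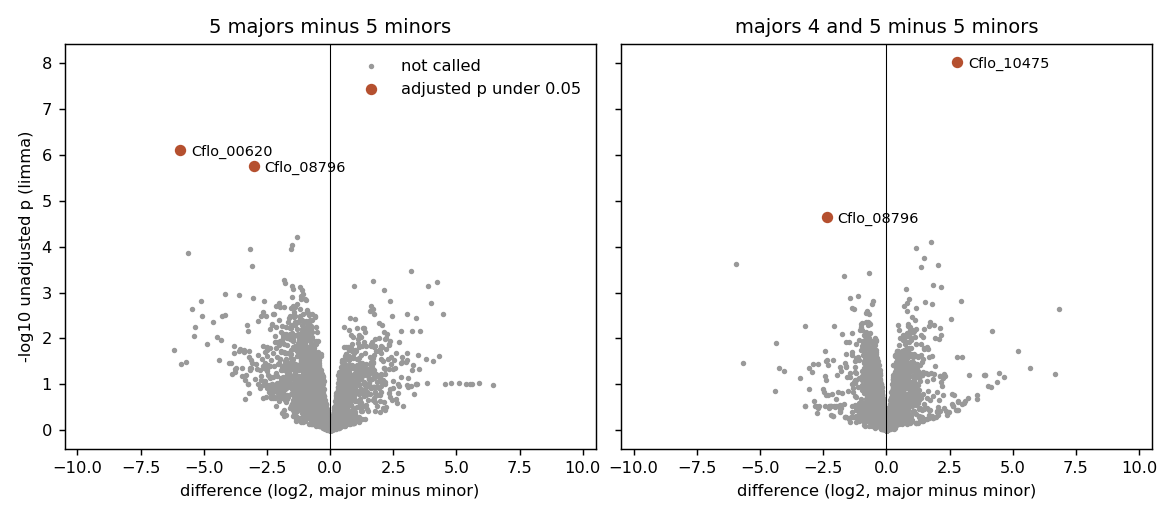
Each point is 1 of 3694 tested genes; the horizontal axis is the log2 difference, major minus minor, and the vertical axis the negative log10 of the unadjusted limma p, for all 5 majors (left) and majors 4 and 5 alone (right), each against the 5 minors. Coloured points passed adjustment: Cflo_00620 and Cflo_08796 on the left, Cflo_08796 and Cflo_10475 on the right.

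The remaining 10 of the 12 genes with the smallest p among those lower in majors did not pass (limma, adjusted p of 0.0687 to 0.165). Among all 12 the differences ran from -5.94 to -1.20, with a median of -1.79, and the median was -1.63 when only majors 4 and 5 were used. Single genes moved more, as Cflo_10745, whose difference was -1.52 with all majors and -1.001 with majors 4 and 5. Majors and minors did not overlap in any of the 12. Choice of these genes rests on this comparison, so their separation is a description: over all 3694 tested genes 153 (4.14%) were lower in majors without overlap and 46 (1.25%) higher.

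Cflo_03641 stood at 1.50, 1.48, 0.90, 1.11 and 0.92 in majors 1 to 5 and at 2.96, 2.61, 2.13, 2.96 and 2.90 in minors 1 to 5. Every major lay below every minor, with majors 1 and 2 nearest them. Its difference was -1.52 with all majors and -1.68 with majors 4 and 5 (limma, adjusted p = 0.0687 with all). Cflo_04406 gave 2.16, 2.37, 2.59, 2.25 and 2.78 in majors, against 4.41, 4.13, 3.88, 3.77 and 3.73 in minors. Every major lay below every minor, with major 5 nearest them, and the differences were -1.55 with all majors and -1.45 with majors 4 and 5 (limma, adjusted p = 0.0687 with all).

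Cflo_05808 lay at 3.25, 3.79, 3.76, 3.73 and 3.68 in majors and at 4.98, 4.98, 4.77, 4.81 and 4.70 in minors. The majors lay in a narrow band below the minors, with major 1 lowest (difference -1.20 with all majors, -1.12 with majors 4 and 5; limma, adjusted p = 0.165 with all). Cflo_16794 was listed at 0 in majors 1 to 4, stood at 4.16 in major 5, and reached 4.66 to 8.22 in the 5 minors. Only major 5 came near the minors for this gene, which was detected in all 6 subsamples of the further minor and in 1 of 21 scouts. Cflo_02786, listed at 0 in all 5 majors, stood at 1.79 to 5.21 in minors (limma, adjusted p = 0.0687).

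**Figure D3:**
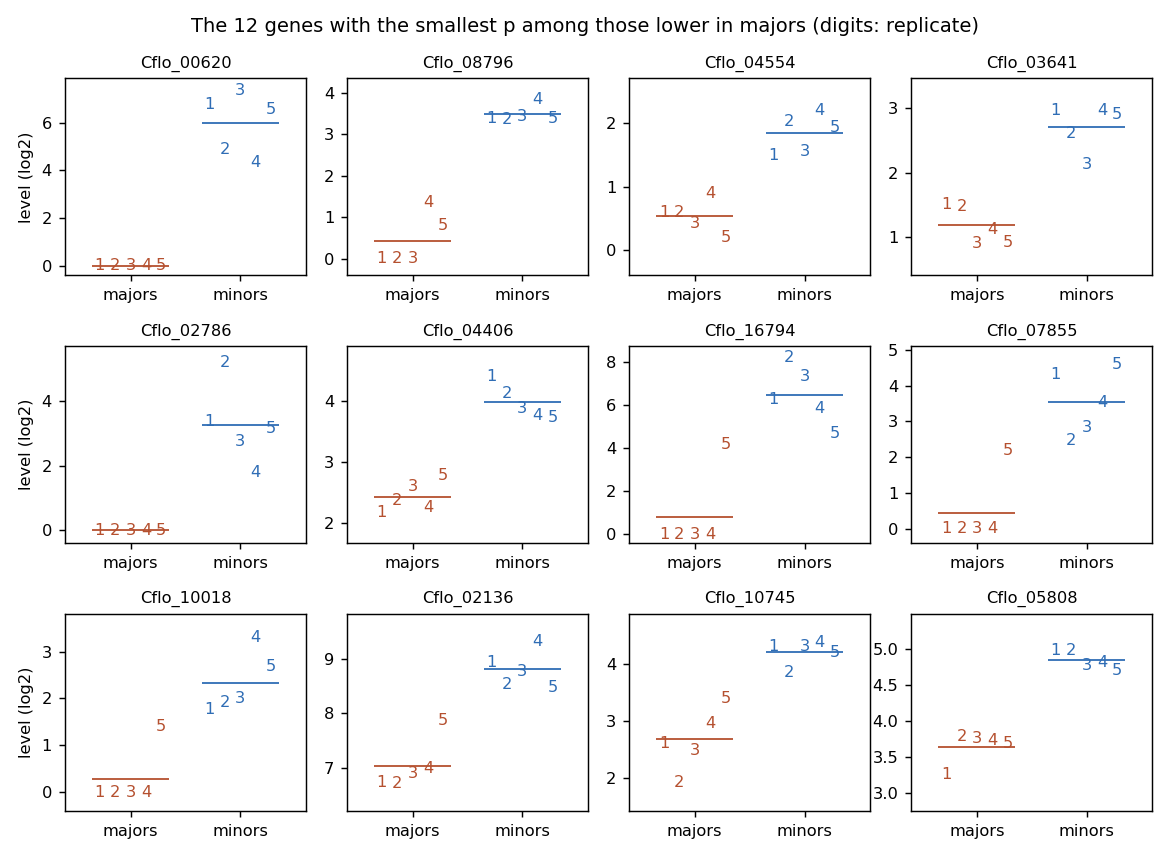
Levels (log2) of the 12 genes with the smallest p among those lower in majors; each digit is the replicate of one library, majors left and minors right, and lines are means. The castes did not overlap in these 12 genes, from the gap of 4.28 in Cflo_00620 to narrower gaps in the others.

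No gene passed in the other direction. The 12 genes with the smallest p among those higher in majors had limma adjusted p of 0.140 to 0.175, and their differences had a median of 2.27 with all majors, 2.96 with majors 1 to 3 and 1.52 with majors 4 and 5. Majors 1 to 3 all stood above majors 4 and 5 in 9 of these 12 genes, against 8.91% of all tested genes, and majors 1 to 3 were used in choosing them. Among the 12 genes lower in majors, majors 1 to 3 all stood below majors 4 and 5 in 3, against 20.1% of all tested genes. In most of the higher genes the level was thus highest in the libraries with the fewest identifiers, whose part in the differences was not tested.

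Cflo_14262 stood at 5.23, 5.48, 3.98, 2.85 and 2.17 in majors 1 to 5 and at 0.75, 0.99, 0.77, 0.47 and 0.84 in minors 1 to 5. The castes were apart by 1.23 and the 2 majors with the most identifiers detected lay nearest the minors (difference 3.19, and 1.77 with majors 4 and 5; limma, adjusted p = 0.140 and 0.0984). Cflo_13556 gave 4.66, 3.97, 3.61, 1.95 and 1.77 in majors and 0.90, 0.91, 0.14, 0.83 and 1.29 in minors, again with majors 4 and 5 nearest the minors. Its difference was 2.38, against 1.06 with majors 4 and 5 (limma, adjusted p = 0.175 and 0.406).

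Cflo_12794 and Cflo_09873 did not follow that order. Neither, narrowly, did Cflo_05311, at deposited values of 2.901 in major 1 and 2.907 in major 5. Cflo_12794 stood at 1.59, 1.90, 1.18, 1.45 and 1.32 in majors, against 0.76, 0.29, 0.92, 0.57 and 0.20 in minors. The 5 majors lay within a narrow range above the minors (difference 0.95, and 0.86 with majors 4 and 5; limma, adjusted p = 0.164 and 0.406). Cflo_09873 stood at 3.28, 2.19, 2.77, 2.197 and 3.35 in majors, against 1.41, 0.56, 1.98, 1.45 and 0.26 in minors. Major 5 was the highest library, and the difference was 1.63 with all majors and 1.66 with majors 4 and 5 (limma, adjusted p = 0.175 and 0.461).

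Cflo_02251 stood at 1.26 to 6.62 in the 5 majors, was listed at 0 in minors 1 to 4 and stood at 2.73 in minor 5. Minor 5 overlapped the majors, major 5 being the lowest of them. The further minor brain, normalized in its own table, held the same gene at 11.07 to 11.61 in its 6 subsamples, which come from 1 ant. That brain was not compared with the others in a test, and a value listed at 0 can be a failed estimate.

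**Figure D4:**
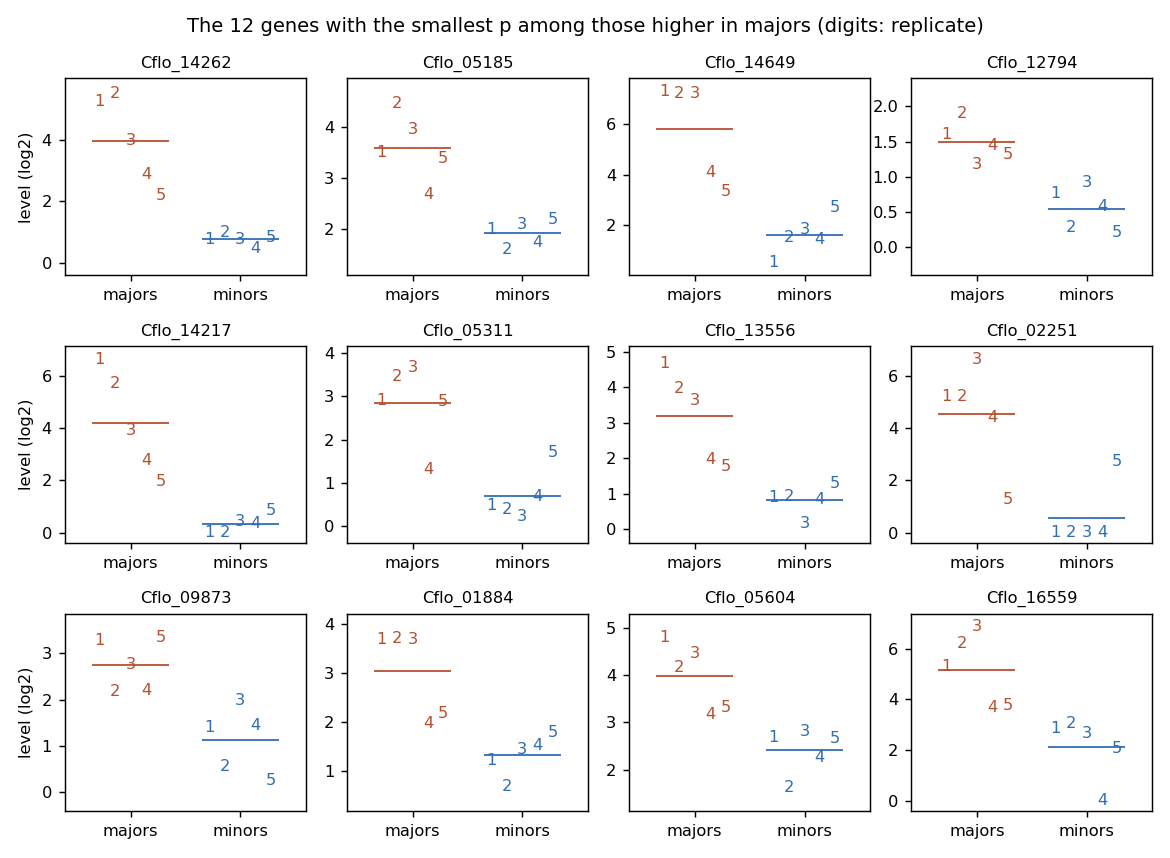
Levels (log2) of the 12 genes with the smallest p among those higher in majors; each digit is the replicate of one library, majors left and minors right, and lines are means. Replicates 1 to 3 of the majors sit above replicates 4 and 5 in most panels, as in Cflo_13556, where they stood at 3.61 to 4.66 against 1.95 and 1.77.

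Majors 4 and 5 alone, whose numbers of detected identifiers lie close to those of the minors, gave 2 calls in 3694 genes (0.0541%), 1 higher (0.0271%) and 1 lower (0.0271%). Without adjustment, 177 genes (4.79%) reached a p under 0.05 as higher and 174 (4.71%) as lower, with a median difference of -0.04 over all tested genes. On levels in place of deposited values, the same libraries gave 169 as higher and 198 as lower (chosen after seeing the data). Majors 4 and 5 both lay above every minor in 278 genes (7.53%) and both below in 362 (9.8%).

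Cflo_10475 rose in majors 4 and 5. It stood at 2.89 in major 4 and 2.70 in major 5, was listed at 0 in majors 2 and 3, and stood at 4.93 in major 1, against 0 in all 5 minors. Majors 2 and 3 were like the minors, and the other 3 majors were above them. With majors 4 and 5 alone the difference was 2.81 (SE 0.089; limma, adjusted p = 3.6e-05), and with all majors 2.11 (limma, adjusted p = 0.274). The small SE rests on minors that are tied at 0, where no spread can be measured. In the further minor brain it was detected in 5 of 6 subsamples, at up to 0.50, and in scouts in 18 of 21. Of 20 alternatives to the comparison of all 10 libraries, 2 passed, both with majors 4 and 5 alone (limma, adjusted p of 2.75e-05 to 0.453 over the 20).

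Cflo_14063, Cflo_07214 and Cflo_05697 were the next higher genes that the comparison of all majors had not ranked. Cflo_14063 stood at 4.17, 3.83, 0, 1.40 and 1.12 in majors 1 to 5, and in the minors it was detected only in minor 4, at 0.44. Cflo_07214 stood at 2.80, 0, 2.02, 2.38 and 2.49 in majors and at 0.72 to 1.27 in minors. Cflo_05697 was listed at 0 in majors 1 and 2, stood at 2.01, 2.23 and 2.12 in majors 3 to 5, and stood at 0.43 to 1.14 in minors. In these last 2 genes the libraries that did not detect the gene set the difference with all majors, 1.01 in Cflo_07214 and 0.44 in Cflo_05697, against 1.47 and 1.35 with majors 4 and 5. None of the 3 passed with majors 4 and 5 alone (limma, adjusted p of 0.101 to 0.130).

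Among the 6 genes with the smallest p lower in majors 4 and 5, 5 were also among the 12 with the smallest p with all majors. The exception was Cflo_09463, which stood at 1.19, 0.48, 0.95, 0.64 and 0.65 in majors and at 1.26 to 1.41 in minors. The minors lay in a narrow range, and major 1 almost reached them (difference -0.55, and -0.68 with majors 4 and 5; limma, adjusted p = 0.192 and 0.154).

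Majors 1 to 3 alone gave 620 calls (16.8%), 153 higher (4.14%) and 467 lower (12.6%), over a median difference of -0.34. Without adjustment, 315 genes (8.53%) reached a p under 0.05 as higher and 851 (23%) as lower. These 3 libraries and the minors differ in caste and in the number of identifiers detected, which cannot be told apart here.

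Some identifiers changed in whether they were detected at all. Of all 18130, 13 were detected in the 5 minors and in no major, and 3 in the 5 majors and in no minor. All 10 libraries detected 3149. The tested genes among the 13 were Cflo_00620 and Cflo_02786, and the others were weak, at 2.07 or less in every minor. Cflo_08502 was the strongest of the 3, at 2.71, 4.02, 1.28, 0.44 and 0.12 in majors 1 to 5, and it was detected in all 6 subsamples of the further minor. It was chosen after its values were seen. The 13 were listed at 0 in major 5 too, which detected more identifiers than any minor, and why they were missed was not tested.

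Ribosomal RNA, the RNA core of the ribosome, is largely removed by poly(A) selection, and 38 rRNA identifiers are in the table, 31 of them tested. None was called (1 was higher and 3 were lower at a p under 0.05 before adjustment), 15 had a higher and 16 a lower mean in majors, and the median difference was -0.02. Over all tested genes 65.2% had a lower mean in majors, and at that unadjusted p 4.33% were higher and 12.2% lower, which is the background for the classes that follow too. Near-identical copies can share reads, so single identifiers are uncertain. A group of 5 (rRNA14, rRNA15, rRNA16, rRNA22 and rRNA27), chosen after its values were seen, was detected in majors 1 and 2, at 11.86 to 19.19, and in none of the other 8 libraries. In scouts they were detected in 19 to 21 of 21. In major 2, rRNA27 took the second rank, at 19.19, where Cflo_13243 stood in the other 9 libraries. rRNA made up 95.1% of the back-transformed sum in major 2 and 62.0% to 63.6% in the others, a share fixed by which identifiers hold the top ranks.

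Further rRNA identifiers set majors 1 to 3 apart, in either direction. Identifier rRNA5 stood at 11.62, 10.91, 12.77, 9.83 and 8.36 in majors 1 to 5 and at 10.54, 9.38, 8.34, 9.57 and 9.57 in minors 1 to 5. Majors 1 to 3 exceeded every minor and majors 4 and 5 did not. The values of rRNA2, rRNA3, rRNA6, rRNA29 and rRNA30 had that order as well, although major 2 tied with minor 1 in rRNA3 at 11.02. In rRNA29 and rRNA30, majors 4 and 5 were listed at 0. How many of all tested genes had majors 1 to 3 above or below every minor was not counted. Conversely, majors 1 to 3 lay below every minor in rRNA12, rRNA21, rRNA24, rRNA31, rRNA32, rRNA33, rRNA35 and rRNA36. In rRNA21 they stood at 10.15, 11.56 and 11.33, against 12.57 to 12.77 in minors. rRNA18 stood at 20.12 in all 10 libraries and was the top rank in each.

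**Figure D5:**
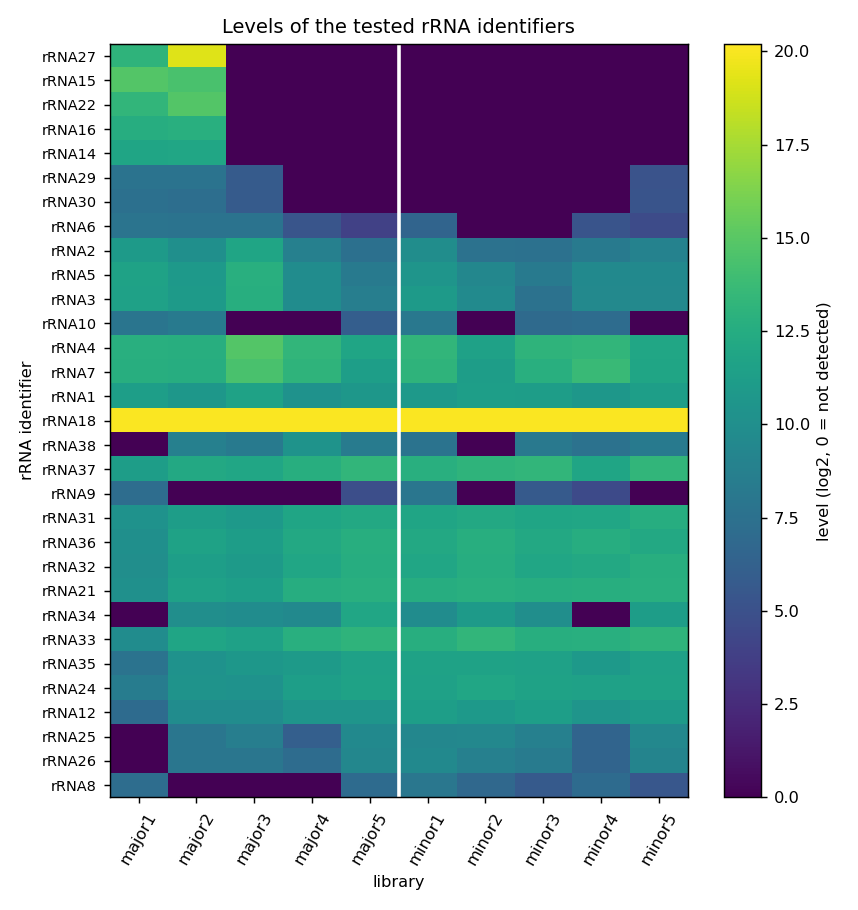
Levels (log2) of the 31 tested rRNA identifiers in the 10 libraries, majors left of the white line and minors right; dark cells are listed at 0. The bright cells in majors 1 and 2 alone are the 5 identifiers that reached 11.86 to 19.19 there and were listed at 0 elsewhere.

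Small nuclear RNAs, the RNA parts of the spliceosome, have 29 identifiers, 19 of them tested and none called (1 higher and 1 lower at a p under 0.05 before adjustment). Of the 19, 16 had a lower mean in majors, against 65.2% of all tested genes, with a median difference of -1.07 with all majors, -1.93 with majors 1 to 3 and -0.00057 with majors 4 and 5. Transfer RNAs, which carry amino acids to the ribosome, have 458 identifiers, 85 tested and none called (0 higher and 1 lower at a p under 0.05 before adjustment). Their median difference was -0.11 with all majors, -0.74 with majors 1 to 3 and 1.41 with majors 4 and 5. With majors 4 and 5, 3 tRNAs were higher and 1 lower at a limma p under 0.05 before adjustment. In majors 1 to 5, 58, 15, 9, 53 and 50 tRNA identifiers were detected. Minors 1 to 5 had 39, 45, 13, 53 and 53, so majors 2 and 3 and minor 3 were all low. In tRNA30, tRNA143, tRNA219 and tRNA42, the most abundant on average, major 1 and minor 3 were both listed at 0. MicroRNAs, short regulators of messenger RNA, have 119 identifiers, and 5 were tested, with none called (0 higher and 2 lower at a p under 0.05 before adjustment). miRNAnovel6 was listed at 0 in majors 1 to 3 and stood at 11.22 and 8.99 in majors 4 and 5, against 7.41 to 11.22 in minors.

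Chemosensory receptors served as a check for tissue from the antennae, which carry the olfactory neurons. ORco, the co-receptor that odorant receptors need, was detected in major 3, at 2.205, and listed at 0 in the other 4 majors and all 5 minors. Of 406 odorant receptor identifiers, majors 1 to 5 detected 13, 25, 13, 32 and 79, and minors 1 to 5 detected 44, 62, 43, 49 and 65. None of them reached the mean for a test. Major 5 detected more of them than any other library, and it also detected the most identifiers of all classes. Their share of its back-transformed sum, 3.97e-05%, was the lowest of the 10 libraries. Gustatory receptors, the taste receptors, numbered 63, and majors detected 2, 3, 4, 2 and 8, against 10, 3, 4, 6 and 6 in minors. IR25a, a broadly used co-receptor of the ionotropic receptors, stood at 1.58, 0.86, 1.10, 1.36 and 0.76 in majors and at 1.28, 1.22, 1.29, 1.65 and 1.20 in minors. The castes overlapped in IR25a, with a difference of -0.19 (limma, adjusted p = 0.637). The co-receptor IR8a stood at 0, 0.79, 1.16, 0.37 and 0.37 in majors 1 to 5 and at 0.35 to 0.78 in minors. IR76b was detected in major 5 and minor 4 alone, at 0.00127 and 0.00635. Neither IR8a nor IR76b reached the mean for a test. The table carries no gene names for neurons or glia, so the brain label could not be checked against brain markers.

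The antTRG identifiers, whose name the table does not spell out, numbered 57, and majors detected 7, 9, 4, 15 and 23 of them, against 20, 18, 22, 22 and 18 in minors. None of the 7 tested was called (0 higher and 2 lower at a p under 0.05 before adjustment). antTRG543 stood at 6.02, 6.39, 0.38, 6.62 and 5.71 in majors and at 5.29 to 6.83 in minors, with major 3 alone far below.

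The 6 most abundant numbered genes did not pass, and their values varied more among majors than among minors. Cflo_13243 stood at 19.19 in 4 majors and all 5 minors and at 13.67 in major 2. Cflo_11535 stood at 9.02, 9.46, 13.28, 14.83 and 14.43 in majors 1 to 5 and at 14.43 to 14.83 in minors, so majors 1 to 3 lay below every minor while majors 4 and 5 lay within their range. Its difference was -2.54 with all majors and -0.10 with majors 4 and 5 (limma, adjusted p = 0.295 and 0.845). Cflo_14737 had the same pattern, at 8.81, 9.88, 12.57, 14.43 and 14.83 in majors and 13.67 to 14.83 in minors, with a difference of -2.24, against 0.29 with majors 4 and 5 (limma, adjusted p = 0.339 and 0.757). Cflo_02364 stood at 5.98, 8.31, 10.40, 10.66 and 9.83 in majors, against 9.88 to 10.40 in minors, and Cflo_03949 at 7.70, 7.85, 9.69, 10.91 and 10.91, against 9.57 to 11.02. In both, majors 1 and 2 lay below every minor, and in Cflo_02364 major 5 narrowly did too. Cflo_04374 differed from these, at 9.79, 8.67, 12.17, 10.15 and 10.28 in majors, against 10.05 to 11.62 in minors. Major 3 was above every minor there, and the difference was -0.52 with majors 4 and 5 and -0.55 with majors 1 to 3. In bulk brains, fewer cells of a type and less RNA per cell cannot be told apart.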

How the data were processed

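RNA of 10 day 1 central brains was selected for poly(A) and sequenced strand-specifically, per the labels. The submitters' processing notes name Bowtie2, Cufflinks 2.2.1 and bcl2fastq 2.0. For build and annotation: not given in the sources used here. The labels' shared protocol describes an aliquot of 15% of a brain, a spike-in and a linear amplification, and the labels of the day 1 libraries name poly(A) purification alone, so whether they were amplified is not settled. The values as deposited are on a log2 scale, with base 2 inferred: back-transformed, the numbered identifiers of a library sum to 8.55e+04 to 7.277e+05, while a natural logarithm would give up to 2.273e+08. Every library follows 1 shared distribution plus 1 constant, with values under 0 set to 0 (largest deviation 1e-10); no header or label records this step. Undetected identifiers were recovered as the tie at the bottom. Depth is unknown, because the values hold no counts.

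The planned test assumed linear values; as the deposited values were already logged, limma 3.58.1 in R 4.3.3 ran on them directly, with a variance trend, no covariate, Benjamini-Hochberg adjustment over 3694 genes (mean deposited value of at least 1) and a threshold of 0.05. Numbers of identifiers were tested with exact permutation tests in scipy 1.17.1, and tables were handled with numpy 2.4.6, pandas 2.3.3 and matplotlib 3.10.9. P-values measure the spread between libraries of 1 colony. The scripts were tested on simulated data. Samples, genes and lists were chosen with earlier results of these data known. Named genes were those called, the 12 with the smallest p in each direction, the tested genes detected in all of 1 caste and none of the other, the 6 in each direction with majors 4 and 5 alone, the 6 most abundant numbered genes, and the co-receptors with the 4 most abundant of each named class. Alternatives covered pseudocounts of 0.1 and 5, the filter, normalization, array weights, a replicate block and subsets of libraries. No sequence is shown, and tables normalized separately were not compared in a test.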

Additional observations from a re-analysis of the deposited data

Results flagged for a closer look

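In 10 of 70 groups of 5 libraries that were examined, the highest or lowest library stood apart from the other 4 by more than Dixon's 95% critical value of 0.71 allows as a share of the range. Chance alone gives about 1 in 20 such groups, and groups whose other libraries are all listed at 0 meet the rule by construction. Major 5 stood apart in 5 of the 10. It detected 79 odorant receptor identifiers, against 13 to 32 in the other majors, and it also detected the most identifiers of all classes. It held Cflo_02136 at 7.88, against 6.71 to 6.98, and it was the only major to detect Cflo_07855 (2.198), Cflo_10018 (1.41) and Cflo_16794 (4.16).

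In the other majors, major 1 held Cflo_05808 at 3.25, against 3.68 to 3.79, and major 2 was listed at 0 for Cflo_07214, against 2.02 to 2.80. Among minors, minor 5 was the only one to detect Cflo_02251, at 2.73. Minor 4 held Cflo_08796 at 3.84, against 3.36 to 3.43, and was the only one to detect Cflo_14063, at 0.44.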

How the results depend on the processing

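The 2 calls became 0 with a mean of at least 3, where neither gene is tested and 178 genes had an unadjusted p under 0.05, and 0 with a replicate block (limma, 522 genes at a p under 0.05 before adjustment, and 0.0539 as the lowest adjusted p). Majors 1 to 3 alone gave 620, and leaving out 1 library gave 2 to 37. Whether replicate numbers pair the libraries is not settled. Same-numbered majors and minors correlated at r = -0.117 to 0.166, and 1 of 5 majors correlated best with its own number. The low detection in majors 1 to 3 could hide a pairing from this check. Genes higher at an unadjusted limma p under 0.05 (160 of 3694) numbered 2446 of 18130 with no filter and 33 of 914 with a mean of at least 3. They numbered 315 with majors 1 to 3 alone and 101 to 224 with 1 library left out, the lowest without minor 4. Genes lower (451) numbered 893, 145 and 851 in the first 3 of these settings, 282 with array weights and 174 with majors 4 and 5 alone. They numbered 198 with those libraries, constants removed and undetected identifiers at 0 (chosen after seeing the data), and 303 to 615 with 1 library left out. Deposited values of undetected identifiers reached 0.54, 0.43 and 0.37 in majors 1 to 3, and at most 0.022 in minors. Their part in the 2446 was not tested. The difference in identifiers detected was 17.8 with a threshold of 1, a number the shared distribution nearly fixes, and -3739 to -2162 with 1 library left out. Cflo_00620 did not pass with the block (limma, adjusted p = 0.0539) or with majors 4 and 5 alone, and Cflo_08796 did not with the block or with a pseudocount of 0.1. Of 29 genes named by p, call or detection, 28 kept their direction in each of the 21 settings that tested them. Only 3 of the 29 kept both direction and side of the adjusted p threshold in every setting. All were chosen by their differences in these same libraries, so a kept direction is no separate support. Cflo_05697 had -0.00088 with a pseudocount of 0.1 and -0.17 with majors 1 to 3 alone, and the cause was not tested. Direction changed in at least 1 setting for 4 of the 6 most abundant genes (Cflo_14737 had 0.29, Cflo_03949 0.62, Cflo_02364 0.06 and Cflo_13243 0.02 with majors 4 and 5 alone) and for 14 of 21 tested class members. That pseudocount moved the median of all genes to -0.45. Array weights were 0.141 to 0.279 for majors 1 to 3 and 1.45 to 3.87 for the others.

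All brains came from 1 colony and no counts were available, so the reads behind a value listed at 0 are unknown, and such a value can be a failed estimate.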

Other observations

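Of all 18130 identifiers, 44 were detected in majors 4 and 5 and in no minor, and 20 in all 5 minors and in neither of those majors. Only 1 of the 44 and 3 of the 20 reached the mean for a test. The 2 counts set 2 majors against 5 minors, so they are not alike. Cflo_16936, chosen after its values were seen, stood at 5.95 in major 4 and 3.68 in major 5, and was listed at 0 in majors 1 to 3 and all 5 minors. It was detected in none of the 6 subsamples of the further minor brain and in none of the 21 scouts.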
